A study of Homo sapiens with 12 samples.

Results

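MiR-342 is a hairpin whose mature strands, hsa-miR-342-5p and hsa-miR-342-3p, were both assayed in embryonal carcinoma cells after silencing of the transcription factor SOX2. The 2 assays, of 501 in the authors' table, were chosen by the miR-342 in their name, and the hairpin was selected on the large rise of miR-342-5p in NTera-2 cells transfected with siSOX2. The NTera-2 knock-down values of both strands are therefore given as a description, without a test. MiR-342-5p was listed in all 6 NTera-2 samples and in none of the 6 2102Ep samples, while miR-342-3p was listed in all 12.

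MiRNA levels were measured by quantitative PCR on TaqMan array cards in NTera-2 and 2102Ep, 2 established human embryonal carcinoma lines that are used as malignant counterparts of pluripotent cells. There were 4 groups of 3 samples, which the labels call biological replicates: NTera-2 siSOX2 and NTera-2 NC at passages 40 to 50, and 2102Ep siSOX2 and 2102Ep NC at passages 35 to 50. NC was Silencer Select Negative Control #1, a siRNA without a target, so all samples had been transfected, for 6 h, with Lipofectamine RNAiMAX in NTera-2 and with Lipofectamine 2000 in 2102Ep cells, and were then grown for 72 h. The authors also used a higher siRNA concentration in NTera-2 than in 2102Ep cells. Effects of the line, of the transfection reagent and of the siRNA concentration cannot be told apart. SOX2 mRNA is not on the miRNA cards, so the knock-down itself was not measured here.

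The miR-342 hairpin lies within EVL, a gene for an actin-regulatory protein of the Ena/VASP family, and is transcribed with its host. Drosha and Dicer cut such a hairpin into a short duplex, of which Argonaute usually keeps a single strand while the other is degraded, so that the strands of a shared precursor can reach very different levels. MiR-342-3p is the strand usually found at the higher level and is well known from blood cells.

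The mature strands are shown because the results turn on how they differ, with the seed (bases 2 to 8, through which a miRNA mainly recognises its targets) in capitals. They were taken from RefSeq, build GRCh38.p14, where both lie on the plus strand of chromosome 14, inside the span of EVL on the same strand: miR-342-5p at chr14:100109673-100109693 and miR-342-3p at chr14:100109715-100109737.
hsa-miR-342-5p: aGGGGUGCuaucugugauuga
hsa-miR-342-3p: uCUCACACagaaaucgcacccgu
The hairpin that holds them, at chr14:100109655-100109753, is given with both mature strands in capitals.
MIR342: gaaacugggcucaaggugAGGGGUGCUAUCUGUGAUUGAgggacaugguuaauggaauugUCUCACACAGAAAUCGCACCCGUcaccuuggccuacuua

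The strands were 21 and 23 bases long and shared no seed with each other. Among the 2370 mature human names searched, no other carried either seed. Those names need not cover every known human miRNA, so neither seed is shown to be unique. Bases 2 to 7 alone were shared with miR-342-5p by 2 other names, and with miR-342-3p by none. Folding of the hairpin with RNAfold gave a predicted free energy of -47.7 kcal/mol and 34 base pairs, 16 of them between the mature strands.

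In NTera-2 cells the listed values of miR-342-5p were 69.4-fold higher in siSOX2 than in NC samples, a fold that rests on NC values just below 30 cycles, where card A values piled up, while miR-342-3p lay in siSOX2 inside the range of its NC values. A Ct is the PCR cycle at which the signal crosses a threshold, so a lower Ct means more RNA, with a doubling at about each cycle. Raw Ct of miR-342-5p was 22.7, 24.1 and 24.7 in NTera-2 siSOX2, against 29.988, 29.998 and 29.915 in NTera-2 NC. Every siSOX2 value lay below every NC value. The dCt, for card A a raw Ct less the average of U6 (a spliceosomal RNA) and miR-16 in that sample, was 8.17, 9.19 and 10.1 in NTera-2 siSOX2, against 14.96, 15.6 and 15.3 in NTera-2 NC. The means were 9.16 ± 0.969 in NTera-2 siSOX2 and 15.3 ± 0.301 in NTera-2 NC (SD, n = 3 each), a log2 change of 6.12. The siSOX2 samples spread over 1.94 cycles of dCt and the NC samples over 0.598 cycles.

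MiR-342-3p in the same RNA had a raw Ct of 20.96, 20.9 and 20.97 in NTera-2 siSOX2, against 21.9, 20.3 and 21.1 in NTera-2 NC. Its dCt was 6.43, 5.94 and 6.34 in NTera-2 siSOX2, against 6.91, 5.81 and 6.45 in NTera-2 NC. The siSOX2 values lay inside the range of the NC values. The means were 6.24 ± 0.262 in NTera-2 siSOX2 and 6.39 ± 0.557 in NTera-2 NC (SD, n = 3 each), a log2 change of 0.15. Its sign turned to -0.03 on U6 alone, and values ran between -0.11 and 0.44 when 1 sample was left out.

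**Figure D1:**
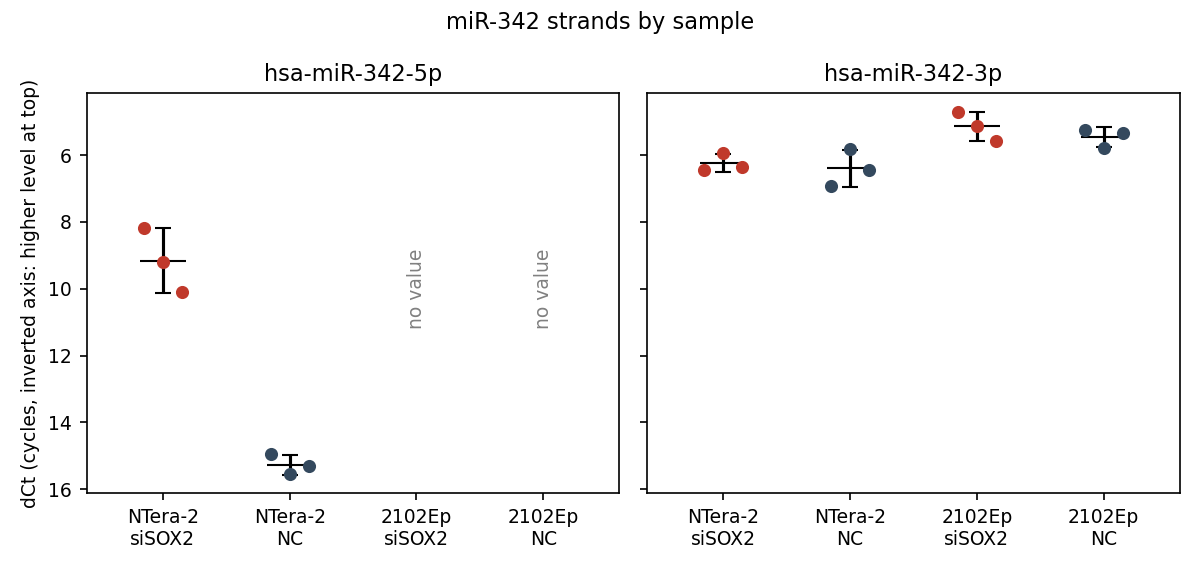
dCt in cycles of miR-342-5p (left) and miR-342-3p (right) in each sample of the 4 groups, on an inverted axis so that higher levels stand at the top; points are samples, left to right replicates 1 to 3, and bars the mean ± SD. MiR-342-5p lies between 8.17 and 10.1 in NTera-2 siSOX2 and between 14.96 and 15.6 in NTera-2 NC, with no value in 2102Ep, while miR-342-3p overlaps between siSOX2 and NC in both lines.

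Of the 2 members, miR-342-5p had groups that did not overlap between siSOX2 and NC, as had 29.0% of all 451 assays tested in NTera-2. In that contrast 8 of the 451 assays, 1.77%, were higher with limma at an adjusted p under 0.05. Since the hairpin was selected on this contrast, nothing is read from these shares. In the order of signed changes miR-342-5p ranked first of 451 and miR-342-3p 88th from the top, where the median over all assays was -0.27. In absolute size the change of miR-342-3p was above that of 90 of the 451 assays.

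The changes next to that of miR-342-5p at the upper end of the order were much smaller. The log2 change was 2.68 for miR-375, a miRNA known from pancreatic islets, 2.68 for miR-633 and 2.48 for miR-193b*. At the other end stood miR-639 with -6.09, miR-609 with -5.28 and miR-548I with -4.33. These 3 assays had siSOX2 samples spread by an SD of 5.43, 6.20 and 3.84 cycles of dCt, against 0.969 for miR-342-5p. MiR-633 at the upper end also spread widely, with an SD of 2.03 in NTera-2 siSOX2 and 2.85 in NTera-2 NC, the second of which was larger than its change. MiR-375 and miR-193b* instead spread less than miR-342-5p in NTera-2 siSOX2, with an SD of 0.200 and 0.739. In NTera-2 NC their SD was 0.308 and 1.11, against 0.301 for miR-342-5p. Raw Ct of miR-342-5p had an SD of only 0.0453 cycles there, at the Ct where card A values piled up. Its dCt in NTera-2 NC thus varied mostly with the subtracted constant, so the 0.301 is no ordinary replicate spread.

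The gap between the strands within a sample is free of the reference, since both assays sit on card A and share the subtracted constant. It was 1.74, 3.25 and 3.76 cycles in NTera-2 siSOX2, against 8.04, 9.75 and 8.86 cycles in NTera-2 NC, with miR-342-5p at the higher Ct in all 6 samples. The mean gap was 2.92 ± 1.05 cycles in NTera-2 siSOX2 and 8.88 ± 0.853 cycles in NTera-2 NC (SD, n = 3 each), a difference of 5.97 cycles. MiR-342-3p thus kept the lower Ct in both groups, by a margin that was smaller in every siSOX2 sample than in any NC sample. The NC gaps rest on miR-342-5p values of 29.915 to 29.998 cycles, where card A values piled up. Raw Ct in NTera-2 NC had an SD of 0.0453 cycles for miR-342-5p and 0.848 for miR-342-3p, so the NC gaps varied mostly with miR-342-3p. Whether those miR-342-5p values are measured levels was not tested. A gap between 2 assays also holds any difference in their PCR efficiency, so its size in 1 group is no ratio of the strands.

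**Figure D2:**
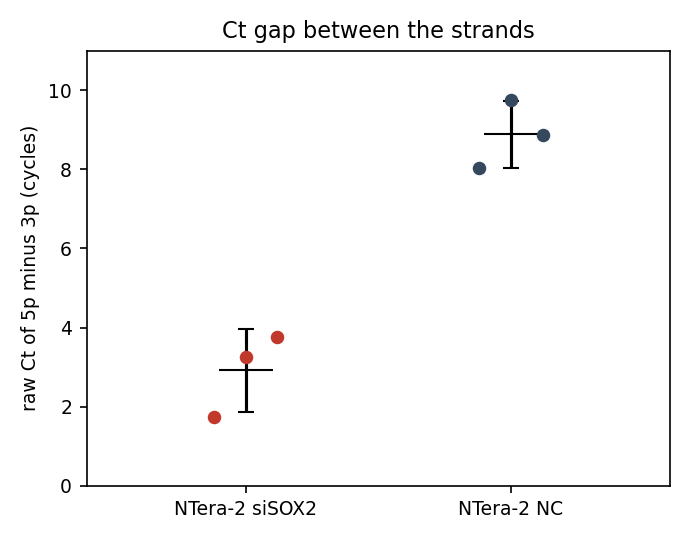
Raw Ct of miR-342-5p minus raw Ct of miR-342-3p, in cycles, in each NTera-2 sample, with siSOX2 left and NC right; points are samples and bars the mean ± SD. The gap is 1.74 to 3.76 cycles in NTera-2 siSOX2 and 8.04 to 9.75 cycles in NTera-2 NC. The NC gaps rest on miR-342-5p values just below 30 cycles, where card A values piled up.

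In most other hairpins the changes of the strands lay close together. Both strands were in the authors' table for 87 hairpins, of which 75 had both tested in NTera-2. Across these the difference between the log2 changes of the strands had a median size of 0.33, and it was 1 or more in 8 hairpins, miR-342 included. MiR-342 had the widest difference, 5.97, followed by miR-10b with 2.65 and miR-145 with 2.29, whose strands lie on different cards. Among the 24 tested hairpins with both strands on 1 card the median was 0.32 and the next after miR-342 was 1.31. MiR-342 was selected on the large rise of 1 of its strands in this same contrast. That rise, 6.12, makes up nearly all of its difference, since the other strand changed by 0.15. Its first place in these orders is therefore a description only. In 2102Ep cells the widest of 75 was that of miR-432 with 3.46, then miR-10b with 2.03 and miR-502 with 2.03, with a median of 0.50, and miR-342 was not among those tested. The strands of miR-10b lie on different cards, so its difference also holds that between the card constants, while miR-432 and miR-502 each have both on 1 card.

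**Figure D3:**
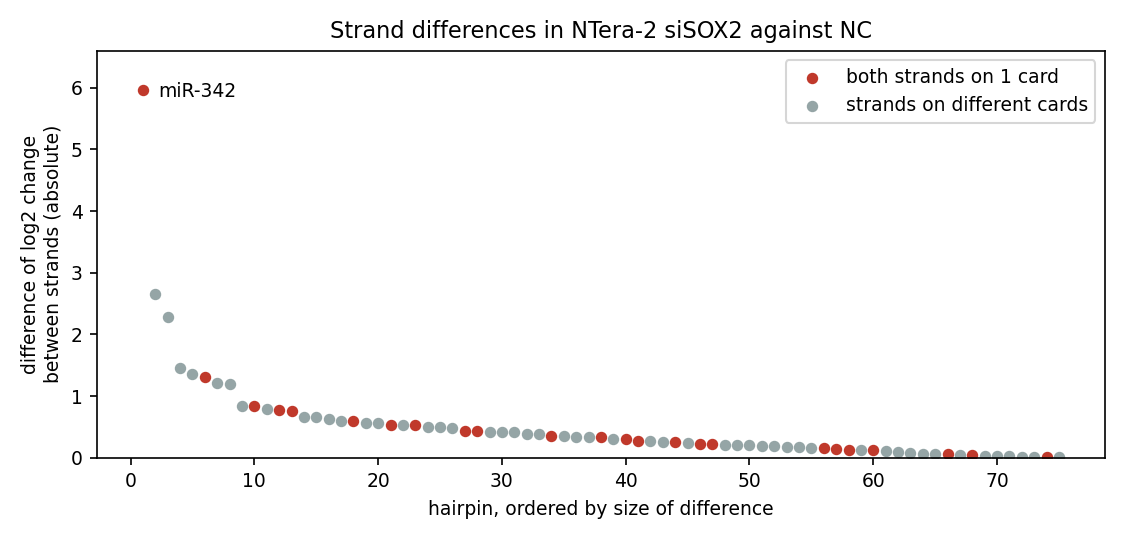
Absolute difference between the log2 changes (siSOX2 minus NC) of the strands of each of 75 hairpins in NTera-2, in falling order; red points have both strands on 1 card, grey points on different cards. MiR-342 stands at 5.97, the next at 2.65, and the median is 0.33. MiR-342 was selected on the large rise of 1 of its strands in this contrast, so its first place is a description only.

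The NC values of miR-342-5p lay at a Ct where card A values of NTera-2 piled up. In the 3 bins of 0.1 cycle below 30 and the 2 above it, in rising order, the 6 NTera-2 samples held 3, 9, 19, 3 and 4 values, while the 2102Ep samples held 6, 3, 3, 4 and 3. The 19 values just below 30 came from 11 assays, and miR-342-5p was the 1 assay of them with all 3 NC values in that bin. Its raw NC values had an SD of 0.0453 cycles, below that of each of 13 card A assays of like Ct, whose median SD was 0.60 and lowest 0.277. The dCt of the same samples had an SD of 0.301, and 2 of the 13 were lower.

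In NTera-2 siSOX2 the raw values of miR-342-5p instead had an SD of 1.04 cycles, above each of 38 card A assays of like Ct, whose median was 0.199. Both the narrow NC values and the wide siSOX2 values enter the change of 6.12, and the part of the pile-up near 30 cycles in it was not tested. Whether the NC values are measured levels or were set at that Ct by the software was not tested either, so the 69.4-fold is a ratio of listed values. Higher values were listed too, with 53 of 1534 card A values of NTera-2 at 30 or above.

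**Figure D4:**
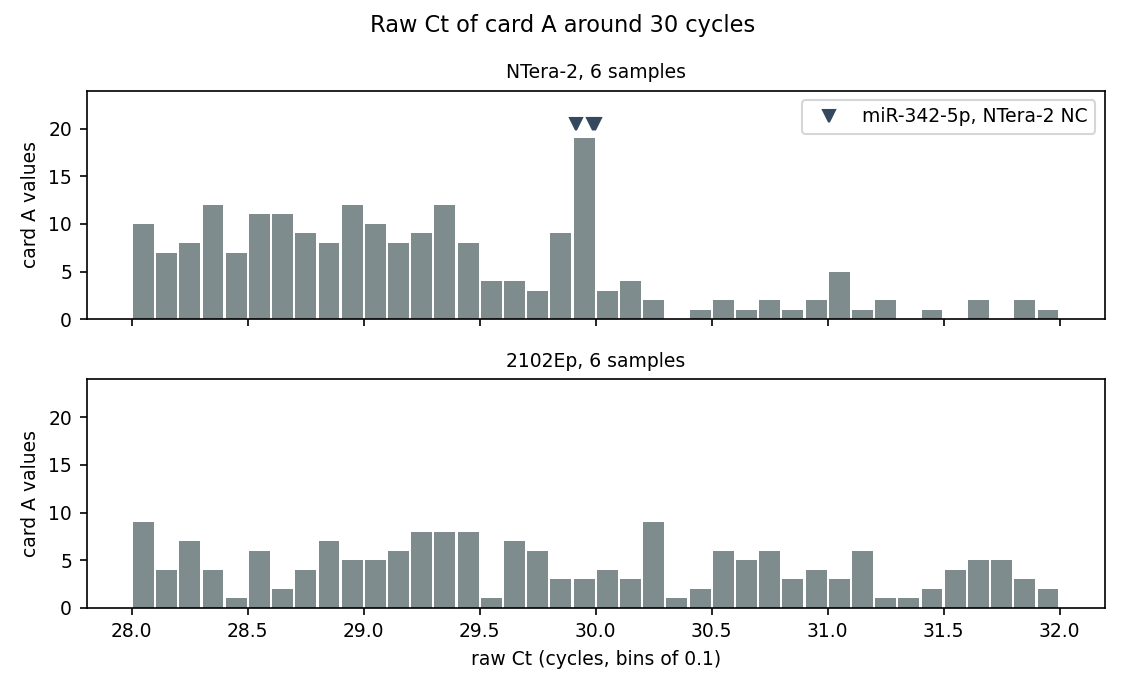
Number of card A values per bin of 0.1 cycle of raw Ct between 28 and 32, in the 6 NTera-2 samples (top) and the 6 2102Ep samples (bottom); triangles mark the 3 NTera-2 NC values of miR-342-5p. The NTera-2 bin just below 30 holds 19 values, against 3 in 2102Ep.

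In 2102Ep cells miR-342-3p did not differ detectably after SOX2 silencing. Its dCt was 4.71, 5.12 and 5.58 in 2102Ep siSOX2, against 5.25, 5.80 and 5.33 in 2102Ep NC, and the groups overlapped. The means were 5.14 ± 0.436 in 2102Ep siSOX2 and 5.46 ± 0.296 in 2102Ep NC (SD, n = 3 each). The log2 change was 0.32 (SE 0.33, 95% confidence interval -0.40 to 1.05), with an adjusted p of 0.624 in the limma fit over all assays. The 1 tested member was not called, where 63 assays, or 14.6% of those tested, were called in either direction. The interval leaves room for a rise of up to 1.05 on the log2 scale. Raw Ct of miR-342-3p in 2102Ep siSOX2 replicate 3 was listed as 27.7 in a column whose values sit 1 measured row out of place, and was 24.0 when taken from its dCt.

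MiR-342-5p had no value in 2102Ep in either table, so neither its change nor the gap between the strands could be had there. It was 1 of 65 assays blank in all 2102Ep samples of the dCt table. Counting only values taken as measured (raw Ct below 40), 67 assays had none in that line, 24 of them on card A, and 61 of the 67 were measured in all 6 NTera-2 samples. Of the 87 hairpins, 12 had a strand not tested in 2102Ep. Of the 1578 card A values of 2102Ep, 103 were 30 or above. The files do not say what a blank stands for, and no level or bound was taken from it for miR-342-5p.

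Between the lines, the level of miR-342-3p depended on the reference. Raw Ct was lower in NTera-2 than in 2102Ep cells, at 20.9 ± 0.0641 in NTera-2 siSOX2 and 23.3 ± 0.592 in 2102Ep siSOX2, and at 21.1 ± 0.848 in NTera-2 NC and 23.7 ± 0.172 in 2102Ep NC (SD, n = 3 each). Set against the mean of 224 assays of card A measured in all 12 samples, it stood at -3.60 ± 0.238 cycles in NTera-2 siSOX2, -3.23 ± 0.516 in NTera-2 NC, -0.88 ± 0.343 in 2102Ep siSOX2 and -0.52 ± 0.136 in 2102Ep NC. In that order the lines separated without overlap, while siSOX2 and NC of the same line overlapped. On the card mean, miR-342-3p was higher in NTera-2 than in 2102Ep by 2.72 on the log2 scale in the siSOX2 samples (SE 0.26, 95% confidence interval 2.10 to 3.34, adjusted p 1.2e-04 with limma). In the NC samples it was higher by 2.72 as well (SE 0.31, 95% confidence interval 1.98 to 3.47, adjusted p 3.0e-04 with limma). The tested member was thus called higher in both comparisons, as were 41.3% of 385 assays in siSOX2 and 39.1% of 386 in NC.

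On the deposited dCt the direction turned, with miR-342-3p lower in NTera-2 by a log2 difference of -1.10 in siSOX2 (adjusted p 0.0083) and -0.93 in NC (adjusted p 0.036), and on U6 alone it was -1.86 (adjusted p 5.3e-04) and -1.48 (adjusted p 0.0053). On RNU44 and RNU48 the difference was 0.56 in siSOX2 (adjusted p 0.18) and 1.19 in NC (adjusted p 0.0088). The reference RNAs themselves differed between the lines. U6 had a raw Ct lower in NTera-2 by 4.27 cycles in siSOX2 and 4.08 in NC, and miR-16 by 2.75 and 2.99 cycles. The nucleolar RNAs differed less, RNU44 by 1.64 and 1.05 cycles and RNU48 by 2.06 and 1.78 cycles in siSOX2 and NC, and miR-342-3p itself by 2.41 and 2.61 cycles. The card A mean instead was higher in NTera-2, by 0.316 cycles in siSOX2 and 0.103 in NC. Which of these references was level between the lines was not tested, so no order of the lines is settled for miR-342-3p.

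**Figure D5:**
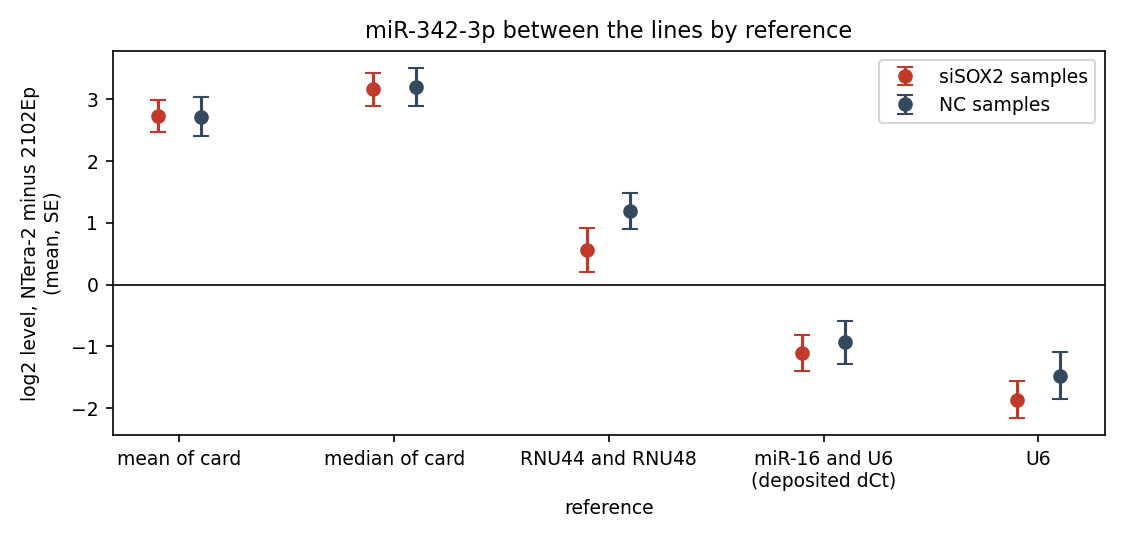
Difference in log2 level of miR-342-3p, NTera-2 minus 2102Ep, in the siSOX2 samples (red) and the NC samples (blue) under 5 references; points are fitted differences and bars 1 SE, from 3 against 3 samples. It is 2.72 in both on the card mean and falls to -1.86 in siSOX2 and -1.48 in NC on U6.

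The assays whose levels ran most like those of the strands carried the names of other miRNAs. Over the 6 NTera-2 samples, with each sample centred on its card mean, miR-342-5p correlated most with miR-218 (r = 0.985), miR-184 (r = 0.983) and miR-323-3p (r = 0.981) among 444 assays, against 0.468 with miR-342-3p. The 6 samples form 2 groups, which every assay shares, and the ranges of these 3 were 1.15, 1.79 and 1.91 on the log2 scale. Their log2 changes in NTera-2 were 0.77, 1.25 and 1.23. The hairpin was selected on these same values of miR-342-5p, so this order of assays is a description only. Over all 12 samples miR-342-3p ran most like miR-30e-3p (r = 0.994), miR-720 (r = 0.992) and miR-1274B (r = 0.991). Those 12 points share the centring and fall into 2 lines of 6 samples.

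Of other miRNAs encoded on the same arm of chromosome 14, 1 assay passed the test, in NTera-2. The list held miR-345 and the imprinted DLK1-DIO3 cluster, a large group of miRNAs expressed from the maternal chromosome, with 46 assays in the authors' table. In NTera-2 none of 33 tested assays rose and 1 fell with limma (2 higher and 4 lower at an unadjusted p under 0.05, and 0 in either direction after adjustment with an equal- or unequal-variance test of each assay), with a median log2 change of -0.25 where all assays had -0.27. The 1 was miR-1197 at -1.47 (SE 0.33, adjusted p 0.026 with limma), whose adjusted p was 0.0615 with the replicate number as a block and up to 0.0878 with 1 sample left out (NTera-2 NC replicate 3), and which passed in 7 of 19 alternatives. The highest value was 1.23 for miR-323-3p (adjusted p 0.216 with limma). MiR-345 had a log2 change of -0.32. Of all 451 assays tested in NTera-2, 1.77% were called higher. The share called lower is not given here, so nothing is read from the 1 that fell. In 2102Ep none of 43 tested assays rose or fell with limma (3 higher and 1 lower at an unadjusted p under 0.05, and 2 higher after adjustment with an equal-variance and 1 with an unequal-variance test), with a median of 0.12 where all assays had -0.0025, and the extremes were miR-431 at 2.13 (adjusted p 0.0747 with limma) and miR-432* at -2.49 (adjusted p 0.399 with limma). Of all assays tested in that line, 14.6% were called in either direction.

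Markers of embryonal carcinoma cells were present in both lines, all 8 of miR-302a to miR-302d, miR-367, miR-371-3p, miR-372 and miR-373. Their mean raw Ct ran between 14.1 and 26.1 in NTera-2 siSOX2, between 13.9 and 25.2 in NTera-2 NC, between 16.2 and 20.96 in 2102Ep siSOX2 and between 16.2 and 20.4 in 2102Ep NC. In NTera-2 none rose (0 higher and 3 lower at an unadjusted p under 0.05) and miR-372 fell by 1.40 on the log2 scale (SE 0.32, adjusted p 0.026 with limma), with an adjusted p of 0.0615 with the replicate block and up to 0.0966 with 1 sample left out (NTera-2 siSOX2 replicate 1), and it passed in 9 of 19 alternatives. The other 7 did not pass the test, the median was -0.41 and the highest was miR-302d at -0.11. Of all assays tested in NTera-2, 1.77% were called higher. The share called lower is not given here, so nothing is read from the fall of miR-372 as a count. In 2102Ep none of the 8 was called with limma (0 at an unadjusted p under 0.05, and 1 higher and 2 lower, also unadjusted, with the tests of each assay alone), between -0.58 for miR-373 and 0.45 for miR-302c. The share called over all assays of that line was 14.6%, in either direction.

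Markers of blood cells, in which miR-342-3p is also abundant, were not called in either line with limma or with the tests of each assay alone, and 1, in NTera-2, was lower at an unadjusted p under 0.05 with limma. Of 10 markers, 7 were among the 501 assays of the authors' table, all 7 tested in NTera-2 and 5 in 2102Ep. The rest were not in it and entered no comparison. Their log2 changes in NTera-2 lay between -1.07 for miR-142-3p and 0.41 for miR-146b, with a median of -0.14, at mean raw Ct of 21.6 to 29.92 in NTera-2 siSOX2 and 21.5 to 29.2 in NTera-2 NC. In 2102Ep they lay between -0.29 for miR-146a and 0.39 for miR-486, with a median of -0.12. Over all assays 14.6% were called in 2102Ep, in either direction, and 1.77% were called higher in NTera-2. The widest change on the 3 lists in NTera-2 was that of miR-1197, at -1.47, against 6.12 for miR-342-5p.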

How the data were processed

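The authors made raw Ct values on the log2 scale (per cycle, pre-amplified cards A and B) and dCt values, also log2, in which each sample's card had 1 constant taken off. On card A it equalled the mean of miR-16 and U6 within 0.0001 cycles in all 12 samples. The deposited fold changes and p-values hold the authors' comparisons and were not used. In the raw column of 2102Ep siSOX2 replicate 3, 0.592% of 338 values from row 106 on lay at the constant (tolerance 0.02 cycles) as placed, against 99.7% once each was shifted by 1 measured row. Its raw Ct was therefore rebuilt by adding the constant to dCt, as were 9 values of 2 assays with a dCt only. Control RNAs of that column were moved likewise. Values counted as measured below Ct 40.

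Assays measured in at least 2 of 3 samples of each group entered a two-sided limma 3.58.1 fit (R 4.3.3, lmFit, then eBayes) of minus dCt with 4 group means over 12 samples, adjusted by Benjamini-Hochberg over all assays, with calls at an adjusted p under 0.05. Lines were compared on raw Ct minus the card mean over assays measured in the 6 samples. The planned tests of miR-342-5p and of the gap between the strands in 2102Ep could not be run. Named assays were both strands, the 3 next changes on either side, the 3 most correlated per strand, the 3 hairpins with the widest difference per line, and the extremes of the lists. Members and lists were chosen with earlier results of these data known. The fit was tested on simulated data. No samples of a group shared identical values. In NTera-2, siSOX2 and NC samples of the same number had residuals correlated by 0.118, 0.265 and 0.159 across assays. Samples of different numbers there reached at most 0.054. In 2102Ep the values were 0.158, 0.169 and 0.064, against at most 0.036. These correlations are weak, whether the numbers mark pairs was not tested, and the main fit did not pair the samples. The number of samples, 3 in each group, limits the precision. Ct values give no molecule counts. Sequences came from RefSeq (GRCh38.p14), folded with RNAfold 2.7.2.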

Additional observations from a re-analysis of the deposited data

How the results depend on the processing

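The change of miR-342-3p in 2102Ep stayed above 0 and short of the threshold in all 19 alternatives, between 0.32 and 0.67 under other settings and between 0.11 and 0.55 with 1 sample left out (adjusted p 0.175 to 0.932). MiR-342-5p in NTera-2 changed by 5.94 to 6.34 under other settings and by 5.62 to 6.59 with 1 sample left out. The difference between the strands ran between 5.38 and 6.39 with 1 sample left out, and no reference alters it by construction. No setting replaced the raw NC values of miR-342-5p, at 29.915 to 29.998 cycles. These ranges therefore cannot show how far both results rest on those values. The hairpin was also selected on this contrast, so the ranges are a description only. With only assays measured in all 12 samples miR-342-5p drops out, and nothing could be set for it in 2102Ep.

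MiR-342-3p between the lines reversed on the deposited dCt, at -1.10 in siSOX2 and -0.93 in NC, and on U6, at -1.86 and -1.48, and on RNU44 and RNU48 it was 0.56 and no longer passed in siSOX2. The other 15 alternatives in siSOX2 and 16 in NC kept direction and call, with 2.56 to 2.90 in siSOX2 and 2.44 to 2.93 in NC with 1 sample left out. Nearly all of them kept the card mean as reference. Only the card median in siSOX2, and the card median and RNU44 and RNU48 in NC, were other references. The causes were not tested. With the replicate number as a block, adjusted p was 7.4e-04 in siSOX2 and 0.0029 in NC, an alternative added after the data were seen, and 0.472 for miR-342-3p in 2102Ep, so the replicate block changed no call of miR-342-3p.

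The background counts moved more. In NTera-2 the 8 higher assays became 4 on U6, 5 on RNU44 and RNU48, 5 with complete assays, 4 with an equal-variance test, 0 with an unequal-variance test (12 at an unadjusted p under 0.05), 3 with the 6 NTera-2 samples, 3 with the replicate block, and 4 without NTera-2 NC replicate 3 or without siSOX2 replicate 2 or 3. In 2102Ep the 63 called assays became 39 with an equal-variance test, 8 with an unequal-variance test and 41 without 2102Ep NC replicate 3. Assays higher in NTera-2 numbered 6 in siSOX2 and 8 in NC on the deposited dCt, 4 and 6 on U6, and 24 and 53 on RNU44 and RNU48, against 159 and 151 on the card mean.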
